A study of Caenorhabditis elegans with 12 samples.

Results

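The pud genes of Caenorhabditis elegans are a small family of 6 genes, pud-1.1, pud-1.2, pud-2.1, pud-2.2, pud-3 and pud-4, among 18217 genes named on the array. On it they were read by 4 of the 22625 probe sets, taken as all those that the platform annotation assigns to these genes and to no other gene. The probe set 177131_s_at is shared by pud-1.1 and pud-1.2, and 186492_s_at is shared by pud-2.1 and pud-2.2, so the copies of a pair cannot be told apart. They are called the pud-1 and the pud-2 probe set here. The probe set 175239_at belongs to pud-3 and 186519_at to pud-4. All 6 symbols matched the current RefSeq gene table by gene number, and all 4 probe sets passed the filter on low signals. The family was chosen by measured values, the falls of pud-3 and pud-4 with tunicamycin in tm3603 larvae in earlier results of these data. Changes in that comparison are therefore given as a description. Tests are printed for the wild-type larvae, although it is not recorded whether wild-type values also entered the choice.

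The name pud stands for protein upregulated in daf-2. The gene daf-2 encodes the worm's insulin and IGF-1 receptor, and the family's first members were noticed as proteins more abundant in daf-2 mutants. The PUD-1 and PUD-2 proteins pair into a heterodimer, with a beta-sandwich fold that resembles the aegerolysins of fungi and bacteria. In the RefSeq order along chromosome V the family forms 1 unbroken run, pud-1.2, pud-2.2, pud-3, pud-4, pud-2.1 and pud-1.1, with pud-3 and pud-4 lying between mirrored pud-1 and pud-2 pairs.

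RNA came from whole synchronized first-stage (L1) larvae of the wild-type strain N2 and of manf-1(tm3603) mutants, which carry an allele of the worm homologue of the secreted ER-resident factors MANF and CDNF. All larvae hatched on MYOB plates with no bacteria, were washed off 24 h after plating, and so were starved in every group. They were then rotated for 5 h in M9 buffer with the vehicle DMSO or with tunicamycin (TM) in DMSO. Tunicamycin stops cells from adding N-linked sugars to new proteins and so loads the endoplasmic reticulum (ER) with misfolded protein. The dose is labelled 5, in ug per mL in 1 label field and in ug per uL in others. Each of the 4 groups (wild type and tm3603, each with no drug and with TM) had 3 arrays, 12 in all, and this number limits the precision of every value. The labels do not say whether the 3 arrays of a group came from separate cultures, so the spread behind each p-value may be technical. The tm3603 allele was measured in 1 mutant strain, and no probe set is assigned to manf-1, so its own level was not analysed here.

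Values are log2 signals, where a difference of 1 is a doubling. Background was read from 32 controls for transcripts foreign to the worm, whose median was 2.23 and whose 95th percentile was 3.34. The drug's effect was visible in hsp-4, a homologue of the ER chaperone BiP, which rose by 3.22 in wild type and 3.57 in tm3603, and in its paralogue hsp-3, which rose by 1.81 and 2.06. In wild type these rises had limma adjusted p-values of 0.000142 and 0.000345. Arrays of 1 group had Spearman correlations of 0.848 to 0.927 over the 14709 probe sets tested. A measure of RNA integrity, the signal at the 3′ end minus that at the 5′ end averaged over 5 control transcripts, was -0.32 to -0.20 on the 4 arrays numbered 2 and 0.02 to 0.38 on the other 8, so results are also given without those 4 arrays. Markers of intestine, hypodermis, body wall muscle, pharynx and neurons passed the filter on low signals, except che-14 of the hypodermis. The hypodermis marker dpy-10 had no matching symbol and was not measured. Of 7 germline and adult markers, vit-6, pgl-1, glp-1 and cbd-1 passed the filter and vit-2, vit-5 and rme-2 did not. The summed signal of the 4 that passed overlapped between all groups. The lowest values of pgl-1, glp-1 and cbd-1 were 2.50, 1.98 and 1.62, below the background 95th percentile. That overlap therefore does not show equal germline content.

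In larvae without drug the pud genes were well measured, and no difference between the genotypes was shown for them. The intervals for tm3603 minus wild type still allowed differences of up to 0.88 to 1.42 log2 units. Only 1 of all 14709 probe sets was called in that comparison, so the lack of a pud call says little about the family. With tunicamycin all 4 probe sets had lower means in both genotypes, and the means were lowest in tm3603. In wild type the pud-1 and pud-2 probe sets fell about as much as each other and passed the test, while pud-3 and pud-4 did not.

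**Figure D1:**
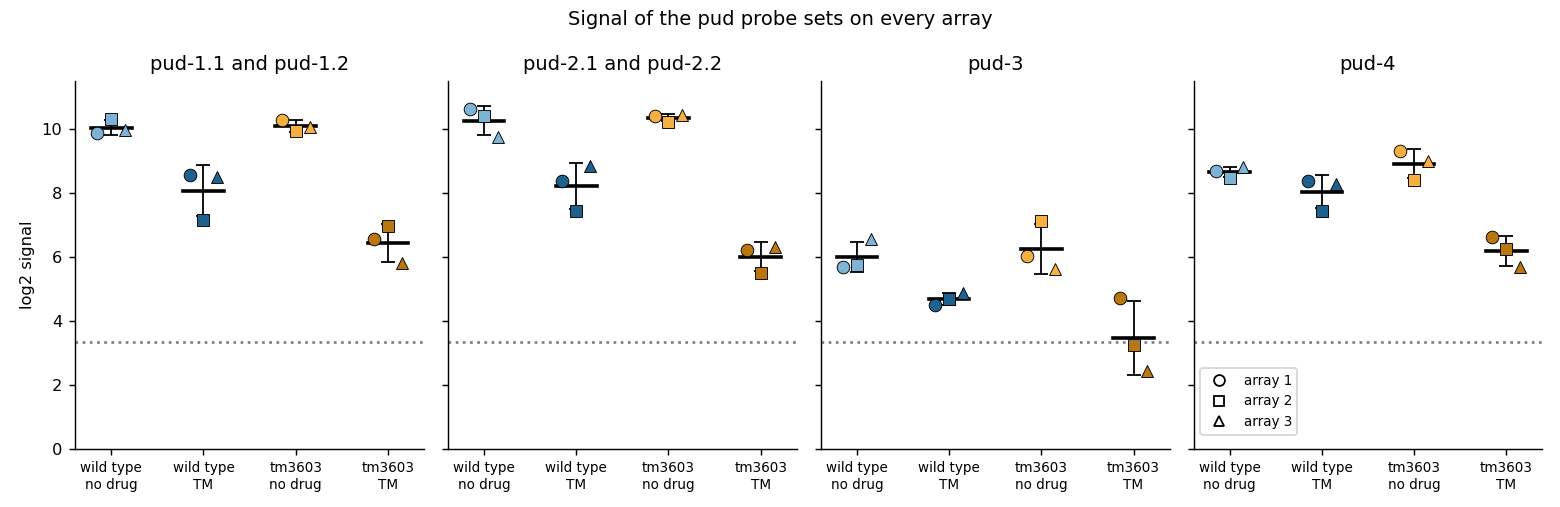
Log2 signal of each pud probe set on every array, by group, with a symbol for each array number, a bar for the mean and an error bar for the SD (n = 3). The dotted line is the 95th percentile of the background controls, 3.34. The treated tm3603 arrays form the lowest group in the panels for pud-1, pud-2 and pud-4, and 2 of the 3 treated tm3603 arrays of pud-3 lie below the line.

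The pud-1 probe set reads the genes of PUD-1, a subunit of the heterodimer. In wild type its log2 signal was 9.86, 10.30 and 9.95 on arrays 1, 2 and 3 without drug, and 8.55, 7.14 and 8.50 with tunicamycin. In tm3603 it was 10.28, 9.93 and 10.08 without drug, and 6.55, 6.96 and 5.81 with tunicamycin. The treated arrays lay below the untreated arrays in both genotypes, and every treated tm3603 array lay below every treated wild-type array. Array 2 was the low one of the treated wild-type arrays. The group means were 10.04 ± 0.23, 8.06 ± 0.80, 10.10 ± 0.18 and 6.44 ± 0.59 (SD, n = 3 each) in the order wild type without drug, wild type with tunicamycin, tm3603 without drug and tm3603 with tunicamycin.

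The pud-2 probe set reads the genes of the partner subunit PUD-2. Its log2 signal in wild type was 10.62, 10.39 and 9.75 without drug and 8.38, 7.44 and 8.85 with tunicamycin. In tm3603 it was 10.42, 10.22 and 10.43 without drug and 6.22, 5.50 and 6.31 with tunicamycin. Again neither genotype's treated and untreated arrays overlapped, and the treated arrays of the genotypes lay apart, by a gap of 1.13. The means were 10.26 ± 0.45, 8.22 ± 0.72, 10.36 ± 0.12 and 6.01 ± 0.44 (SD, n = 3 each) in the same order of groups.

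The gene pud-4 lies between the mirrored pairs. Its log2 signal in wild type was 8.67, 8.47 and 8.80 without drug and 8.38, 7.44 and 8.28 with tunicamycin. In tm3603 it was 9.32, 8.41 and 9.01 without drug and 6.63, 6.23 and 5.70 with tunicamycin. The treated and untreated wild-type arrays did not overlap, but the gap between them was only 0.09, whereas in tm3603 it was 1.78. The means were 8.65 ± 0.17, 8.03 ± 0.51, 8.92 ± 0.46 and 6.19 ± 0.47 (SD, n = 3 each).

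The gene pud-3, next to pud-4, had the widest spread between replicates of the family in tm3603. Its log2 signal in wild type was 5.69, 5.75 and 6.55 without drug and 4.51, 4.68 and 4.86 with tunicamycin. In tm3603 it was 6.03, 7.12 and 5.61 without drug and 4.71, 3.24 and 2.44 with tunicamycin. Treated and untreated arrays did not overlap in either genotype, but the treated arrays of the genotypes did. Of the 3 treated tm3603 arrays, 1 was above the background controls' 95th percentile, so the treated level of pud-3 in tm3603 was measured above background on that array only. The means were 6.00 ± 0.48, 4.68 ± 0.17, 6.25 ± 0.78 and 3.46 ± 1.15 (SD, n = 3 each).

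In wild-type larvae, tunicamycin against vehicle asks how the drug changes the family where manf-1 is intact. The pud-2 probe set fell by 2.03 on the log2 scale (SE 0.37, limma adjusted p = 0.0219), which is 4.09-fold. The pud-1 probe set fell by 1.98 (SE 0.38, limma adjusted p = 0.0423), which is 3.93-fold. The changes of pud-3 and pud-4 were -1.32 (SE 0.55, adjusted p = 0.567) and -0.62 (SE 0.36, adjusted p = 0.721), with 95% intervals of -2.49 to -0.15 and -1.38 to 0.15. Of the 4 probe sets 2 were thus called lower and 0 higher, where 0.0340% of all 14709 probe sets were called lower, 5 in number. At an unadjusted p under 0.05, 3 of the 4 were lower, against 3.94% of all. Treated and untreated arrays did not overlap, with treated lower, for 4 of 4, against 5.44% of all. The median change of the 4 was -1.65 and that of all probe sets was -0.03.

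The wild-type calls were close to the threshold. Neither pud-1 nor pud-2 passed without the treated wild-type array 2, where their changes were -1.52 and -1.64 (adjusted p = 0.112 and 0.0808), nor without untreated wild-type array 1 (adjusted p = 0.110 and 0.129) or array 2 (0.164 and 0.106). Without the 4 arrays numbered 2 pud-1 was at -1.38 (adjusted p = 0.227) and pud-2 at -1.57 (adjusted p = 0.194). The pud-4 change was -0.32 without treated wild-type array 2. In all, pud-1 lost its call in 14 of the 22 alternatives and pud-2 in 7. With the replicate number as a block, pud-1 did not pass (adjusted p = 0.0648) and pud-2 did (0.0186). With only the 6 wild-type arrays in the fit the adjusted p-values were 0.166 and 0.150, and over all alternatives they ranged from 0.0182 to 0.227 for pud-1 and from 0.0099 to 0.194 for pud-2.

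**Figure D2:**
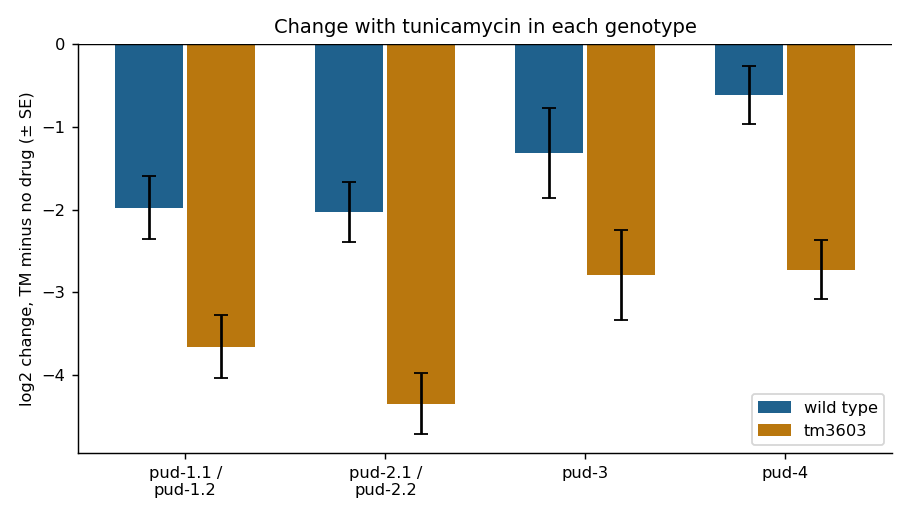
Log2 change of each pud probe set, tunicamycin (TM) minus no drug, in wild type and in tm3603, with limma's SE as error bars (3 arrays per group). The wild-type changes run from -0.62 for pud-4 to -2.03 for pud-2, and the tm3603 changes from -2.73 for pud-4 to -4.35 for pud-2.

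In tm3603 larvae the falls were several-fold for every member. These values chose the family and are a description only. The pud-2 probe set had a change of -4.35 (SE 0.37), or 20.3-fold, the lowest change of all 14709 probe sets. The pud-1 probe set had -3.66 (SE 0.38), the third lowest of all. The change of pud-3 was -2.79 (SE 0.55), or 6.92-fold, with the limit on its treated level given above, and that of pud-4 was -2.73 (SE 0.36), or 6.63-fold. Counted from the lowest change, pud-3 stood at place 6 and pud-4 at place 11, whereas in wild type pud-2, pud-1, pud-3 and pud-4 stood at places 17, 21, 180 and 1612. For the record, 4 of 4 were below limma's threshold downward (0.415% of all probe sets) and 4 of 4 had arrays without overlap (8.53% of all), counts that the choice of the family shaped and from which nothing is read. The pud-3 call was lost with only the tm3603 groups fitted, without any 1 of tm3603 no drug arrays 1 and 2 and tm3603 TM arrays 2 and 3, or without the 4 arrays numbered 2, where its change was -2.24.

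**Figure D3:**
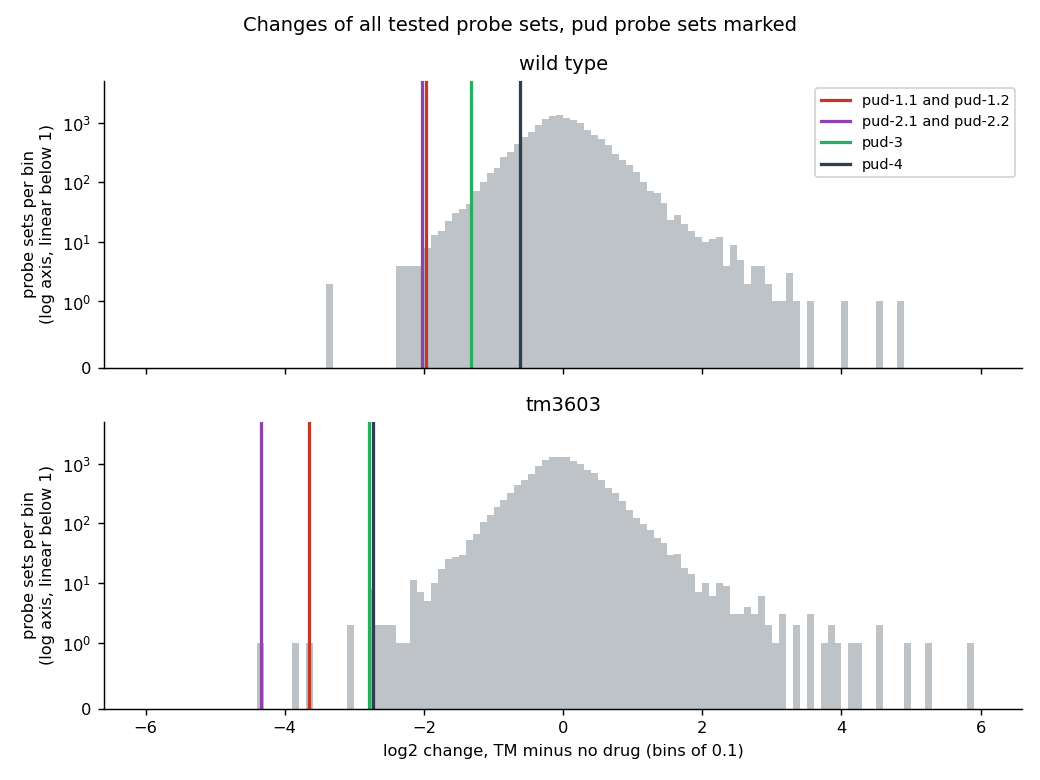
Number of the 14709 tested probe sets in each bin of the log2 change with tunicamycin (TM), on a log axis that is linear below 1, for wild type and tm3603, with a line for each pud probe set. The pud-1 and pud-2 lines lie in the lower tail in wild type, pud-4 lies within the body of the distribution there, and all 4 lie in the far lower tail in tm3603.

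The genotypes were compared within each treatment. Both comparisons share the tm3603 arrays with the one that chose the family, and the treated one rests on the low values that led to the choice. Differences are given with their errors, and the counts of calls under tunicamycin and for the interaction are a description from which nothing is read. Without drug, tm3603 minus wild type was 0.06 (SE 0.38, 95% interval -0.77 to 0.88) for pud-1 and 0.10 (SE 0.37, -0.69 to 0.89) for pud-2. It was 0.25 (SE 0.55, -0.92 to 1.42) for pud-3 and 0.26 (SE 0.36, -0.50 to 1.03) for pud-4. Leaving out 1 array moved these small differences by over 1.5 times, as for pud-4, which was at 0.062 without untreated tm3603 array 1 and at 0.52 without untreated tm3603 array 2. These intervals hold 0 and still allow differences of up to 0.88 to 1.42 log2 units. By limma 0 of 4 passed, where 0.00680% of all probe sets did, and 0 of 4 had an unadjusted p under 0.05, where 5.23% of all did. The arrays of the genotypes overlapped for every member. No share over all probe sets is given for this overlap, so nothing is read from it.

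Under tunicamycin all 4 probe sets had lower means in tm3603. The difference was -2.21 (SE 0.37), or 4.64-fold, for pud-2, and -1.85 (SE 0.36) for pud-4. It was -1.62 (SE 0.38), or 3.08-fold, for pud-1 and -1.22 (SE 0.55) for pud-3. The pud-3 value was -0.71 without treated tm3603 array 3, -1.85 without treated tm3603 array 1 and -0.71 with an offset added before log2. By limma 0 of 4 passed after adjustment over all probe sets, where 0.0340% were called lower, and 4 of 4 had an unadjusted p under 0.05, where 5.51% of all did in either direction. The arrays of the genotypes did not overlap for pud-1, pud-2 and pud-4, 3 of 4, where 5.09% of all were lower in tm3603 without overlap. The pud-2 difference passed in 2 alternatives, the stricter filter and without treated wild-type array 2, where it was -2.61.

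The interaction asks whether the tunicamycin change differed between the genotypes. The change in tm3603 minus that in wild type was -2.31 (SE 0.52) for pud-2, -2.11 (SE 0.50) for pud-4, -1.68 (SE 0.54) for pud-1 and -1.47 (SE 0.77) for pud-3. By limma 0 of 4 passed, as did 0% of all probe sets downward, and 3 of 4, all but pud-3, were lower at an unadjusted p under 0.05, where 2.52% of all were. The interaction contains the tm3603 values that chose the family. For pud-3 it was -0.96 without treated tm3603 array 3, -0.94 with the offset and -0.80 without the 4 arrays numbered 2, and for pud-1 it was -2.61 without those 4 arrays. A larger fall in tm3603 is not shown by the adjusted test for any single member. The sign was negative for every member under each of the alternatives run, as it was for the genotype difference under tunicamycin. Every alternative reuses treated tm3603 arrays behind the choice of the family, so nothing is read from these signs.

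**Figure D4:**
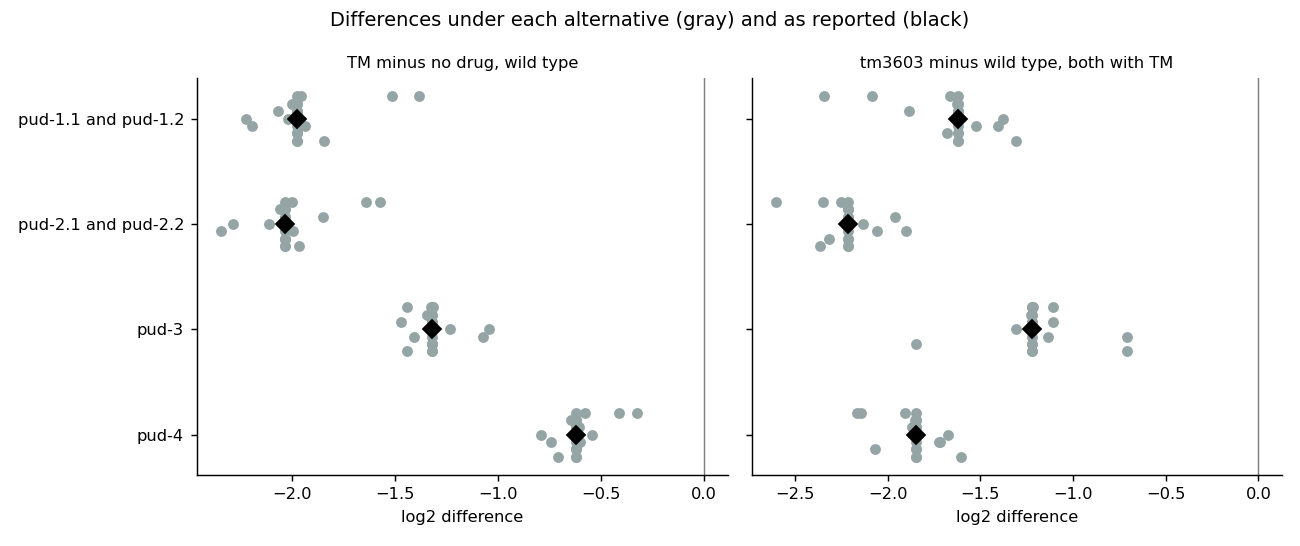
Log2 difference of each pud probe set under each alternative (gray points, vertical offsets only separate them) and as reported (black diamonds), for tunicamycin (TM) minus no drug in wild type and for tm3603 minus wild type with TM. All points lie below 0, and in wild type pud-1 ranges from -2.22 to -1.38, pud-2 from -2.34 to -1.57, pud-3 from -1.47 to -1.04 and pud-4 from -0.79 to -0.32. Many alternatives change the test and not the difference, so their points repeat the reported value.

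The 4 probe sets followed each other across arrays. Over the 12 arrays the Pearson correlation was 0.96 between pud-1 and pud-2, 0.94 between pud-1 and pud-4 and 0.93 between pud-2 and pud-4. It was 0.86, 0.84 and 0.84 between pud-3 and pud-1, pud-2 and pud-4. These correlations hold the group differences described above and share the arrays' scaling. In deviations from the group means pud-1 and pud-4 still moved together (0.74), pud-1 with pud-2 and pud-2 with pud-4 less so (0.34 and 0.36), and pud-3 correlated at 0.14 with pud-1, -0.16 with pud-2 and 0.22 with pud-4. The mean of the 4, each centred on its own mean, was between 1.11 and 1.41 on the 6 untreated arrays. It was -0.15, -0.93 and 0.02 on the treated wild-type arrays and -1.58, -2.12 and -2.54 on the treated tm3603 arrays. The treated genotypes did not overlap in this mean, although they did for pud-3 alone. The mean holds the tm3603 values that chose the family, so nothing is read from that separation.

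Next to the run of pud genes on chromosome V lie irld-16 (a pseudogene) and Y19D10B.6 on one side and irld-32 and irld-28 on the other. The probe set of Y19D10B.6 ranged from 2.99 to 4.70 over the 12 arrays and changed by -0.29 in wild type (limma adjusted p = 0.912) and -0.81 in tm3603. The probe set of irld-16 and the one that irld-32 and irld-28 share did not pass the filter, with signals of 2.26 to 3.59 and 2.54 to 3.83. The falls seen for the family were thus not measured in its neighbours, whose signals were near background.

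Among 13687 other probe sets with 1 gene, 21 correlated above 0.9 with the mean pud profile over the 12 arrays. Those most like it were col-176 (0.96), ifc-1 (0.95), col-88 (0.94), far-7 (0.94), col-159 (0.94), F49E12.10 (0.92), atz-1 (0.92), col-125 (0.92), lipl-3 (0.92) and lbp-6 (0.92). The col genes encode cuticle collagens, ifc-1 an intestinal intermediate filament protein, far-7 a fatty acid and retinol binding protein, lipl-3 a lipase and lbp-6 a fatty acid binding protein. The changes of all those named were smaller than those of the pud-1 and pud-2 probe sets. In both genotypes ifc-1 fell more than pud-3 (-1.32 in wild type, -2.79 in tm3603) and pud-4 (-0.62 and -2.73). In wild type col-176, atz-1, lipl-3 and col-159 also fell more than pud-4. The change of ifc-1 was -1.51 in wild type and -3.04 in tm3603, that of col-176 was -1.22 and -2.18, that of lipl-3 was -0.76 and -1.60, and that of far-7 was -0.30 and -0.72. In deviations from the group means col-159, far-7, F49E12.10 and col-176 correlated at 0.70 to 0.71 with the family, and ifc-1 at 0.24. The most opposite profiles were those of acs-4 (-0.96), an acyl-CoA synthetase, zipt-7.1 (-0.95), a zinc transporter, Y54G2A.18 (-0.95), arf-5 (-0.95), a small GTPase, and Y41C4A.32 (-0.93). Second probe sets of acs-4, arf-5 and Y54G2A.18 correlated at -0.79, -0.75 and -0.89.

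**Figure D5:**
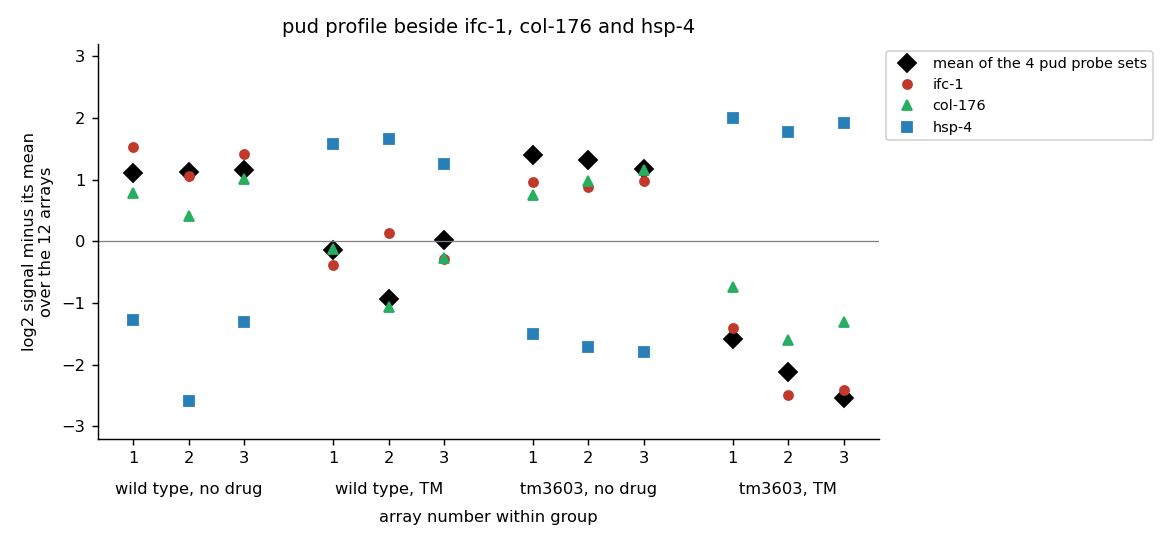
Log2 signal on each of the 12 arrays minus the mean over the arrays, for the mean of the 4 pud probe sets, for ifc-1 and col-176, which follow it most closely, and for hsp-4. The pud mean lies between 1.11 and 1.41 on untreated arrays, between -0.93 and 0.02 on treated wild-type arrays and between -2.54 and -1.58 on treated tm3603 arrays. The hsp-4 signal lies above its mean on every treated array of both genotypes.

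Since the family is named for its rise in daf-2 mutants, genes listed as responding to daf-2 were set beside it. Whether the pud genes share their control was not tested. DAF-16 is the FOXO transcription factor that becomes active when DAF-2 signalling is low. Of the 16 DAF-16 activated genes listed 12 were measured, and 0 passed in either direction in either genotype with tunicamycin. Their median change was -0.13 in wild type, with 8 of 12 below 0, and 0.02 in tm3603, with 6 of 12 below 0. The pud family's own medians were -1.65 and -3.22, the latter shaped by the choice of the family. The medians of all probe sets were -0.03 and -0.02, with 52.4% and 51.5% of them below 0. In wild type the smallest p-values in this list belonged to nnt-1, a mitochondrial transhydrogenase, at -0.75 (limma adjusted p = 0.557), sip-1, a small heat shock protein, at 1.93 (adjusted p = 0.621), and lea-1, a desiccation protein, at -0.97 (adjusted p = 0.659). Of 10 genes that DAF-16 represses only dod-19 passed the filter, with changes of 0.11 and -0.21.

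Marker genes of tissues were set beside the family because whole larvae were measured, where fewer cells of a type and less RNA per cell cannot be told apart. All 14 intestine markers passed the filter, though pho-1 and pept-1 lay near background. In wild type with tunicamycin 0 of the 14 passed the test and 11 were below 0, with a median of -0.28. Of all probe sets 52.4% were below 0 in wild type. In tm3603 1 of the markers passed, ifc-1, with 10 below 0 (51.5% of all probe sets were) and a median of -0.61. Their summed signal on the log2 scale was 12.14 to 12.43 in wild type without drug and 11.34 to 11.87 with it, and 11.85 to 12.44 and 11.27 to 11.36 in tm3603, so it was lower with tunicamycin without overlap in both genotypes. The gene asp-1 alone made up 65.4% of the fall of the summed signal in wild type and 44.2% in tm3603. Without it the sums overlapped in wild type (11.26 to 11.61 without drug, 10.87 to 11.29 with it) and not in tm3603 (11.32 to 11.62 and 10.51 to 10.79), a sum chosen after seeing the data. The part of these markers in the fall of the pud genes was not tested. In wild type the markers with the smallest p were ifc-1 at -1.51 (limma adjusted p = 0.0856), the protease asp-1 at -1.26 (adjusted p = 0.104) and the transcription factor elt-2 at -0.86 (adjusted p = 0.648). In tm3603 asp-1 and elt-2 were at -0.94 and 0.07.

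Of 10 hypodermis markers measured 0 passed in either genotype, with medians of -0.43 in wild type (8 below 0) and -0.59 in tm3603 (10 below 0). Their summed signal overlapped between treatments in wild type (12.59 to 13.25 without drug, 12.30 to 12.67 with it) and not in tm3603, where it was at most 12.35 with the drug and above that without it, and its part in the pud values was not tested either. The hedgehog-related gene wrt-2 was at -1.49 and the cuticle collagen genes rol-6 and sqt-3 at -1.34 and -0.36 in wild type, with limma adjusted p-values of 0.477, 0.567 and 0.708. Body wall muscle markers had medians of -0.06 and 0.04 (6 measured), neuron markers -0.14 and -0.14 (9 measured), and pharynx markers 0.66 and -0.18 (6 measured), with 0 called in each. Under tunicamycin, tm3603 minus wild type had medians of -0.88 for the pharynx markers (6 of 6 below 0), -0.32 for intestine (11 of 14) and -0.36 for hypodermis (7 of 10), beside -1.74 for the pud probe sets and 0.03 for all, and 0 markers passed. The summed pharynx signal overlapped between the treated genotypes (9.42 to 10.83 and 7.98 to 10.20), and the part of these markers in the pud differences was not tested. The medians of every tissue list with tunicamycin lay nearer to 0 than the pud family's in the same genotype. The family was chosen for its falls in treated tm3603 larvae, so nothing is read from comparisons with its medians that hold those arrays.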

How the data were processed

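Per the labels' protocols, Trizol-extracted total RNA was turned into biotin-labelled cRNA and hybridised to 1-colour Affymetrix arrays. The deposited table holds the authors' log2 signals for 22625 probe sets on 12 arrays. The log2 scale was read from the values (1.23 to 14.46), and array medians of 3.96 to 4.05 show that the arrays had been brought to a common scale by a method not given in the sources used here. The submitters' processing notes name MAS5, with no role or version. Scaling of this kind assumes that most transcripts keep their level, and a background correction can shrink or enlarge differences of dim probe sets such as that of pud-3. With an offset added before log2 the pud-3 change in tm3603 was -2.01, against -2.79 as reported. No 2 arrays were identical.

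The 77 control probe sets were left out, and 14709 probe sets were tested, each of which exceeded its array's 40th percentile on 3 or more arrays. Group means of all 12 arrays were fitted with limma 3.58.1 in R 4.3.3 (lmFit, eBayes with a mean-variance trend, 8 residual and 5.93 prior degrees of freedom). Tests were two-sided with Benjamini-Hochberg adjustment over all probe sets and a threshold of 0.05. The fit was also run on simulated data with noise drawn independently for each array. Such data cannot show how the fit behaves where arrays share a set. Names came from the platform annotation and gene numbers from the RefSeq table of WBcel235. No build is named for the arrays, so no coordinates are given. For genes outside the family the kept probe set with 1 gene and the highest mean was used.

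The members, the 9 gene lists and the alternatives were chosen with earlier results of these data known. Named were all members, the 10 most like and 5 most unlike profiles, the 2 genes on either side of the run, hsp-3, hsp-4 and up to 3 genes per list with the smallest wild-type p; part of these is given. The other genes of the lists are described by counts only, and 2 listed genes had no matching symbol and were not analysed here. As alternatives, arrays were quantile normalized or centred on their medians, the filter was dropped or raised to the 60th percentile, and 9.41 was added before taking log2. The fit was repeated with eBayes made robust or run with no trend, on the compared groups alone, with a block for the replicate number, and leaving out each array or the 4 arrays numbered 2.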

Additional observations from a re-analysis of the deposited data

How the results depend on the processing

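For tunicamycin in wild type, 2 of the 4 pud probe sets passed as reported, 1 without the filter on low signals, 0 with eBayes without the trend, 0 with only the wild-type groups fitted, 0 without the 4 arrays numbered 2, and 0 to 2 when 1 array was left out. Alternatives that change only the filter, the eBayes settings, the block or the groups fitted leave a difference as it was. Leaving out an array of another group does so too, so the sign of such values was fixed in advance. All 88 alternative values of this comparison, such copies among them, were below 0. So were all 88 for tunicamycin in tm3603, the comparison that chose the family, where 3 or 4 passed when 1 array was left out. For the genotype under tunicamycin 0 passed as reported, 1 with the filter at the 60th percentile, and 0 to 1 when 1 array was left out. For the genotype without drug and the interaction 0 passed throughout. Of the 88 values for the genotype without drug 5 turned negative: pud-1 at -0.033 without untreated wild-type array 1 and -0.036 without untreated tm3603 array 1, pud-2 at -0.15 without untreated wild-type array 3, and pud-3 at -0.18 without untreated tm3603 array 2 and -0.31 without the 4 arrays numbered 2. With 1 array left out these differences ranged from -0.036 to 0.19 for pud-1, from -0.15 to 0.28 for pud-2, from -0.18 to 0.57 for pud-3 and from 0.062 to 0.52 for pud-4. The causes of these changes were not tested. The median correlation among the probe sets was 0.90, and 0.81 by Spearman.

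With the replicate number as a block, 1 pud probe set passed for tunicamycin in wild type (pud-2, adjusted p = 0.0186, pud-1 at 0.0648), and the block changed no other call of a pud probe set. Same-numbered arrays correlated above 0.1 in their deviations in 7 of 18 pairs (-0.08 to 0.23), short of every pair, so the fit without the block was kept. That 8 of 12 arrays correlated best with their own number, and that the arrays numbered 2 stood apart in 3′ minus 5′ signal, are hints from the data, not the design, of a shared set. The signal over background limits pud-3 alone, in treated tm3603 larvae.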
